A study of Mus musculus with 39 samples.

Results

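Open chromatin at gene start sites was compared between neocortical nuclei isolated by INTACT and by FANS. The comparison used the deposited lists of ATAC-seq peaks, 3 from INTACT samples and 3 from FANS samples, among the 39 samples of the series. Peaks on the sex chromosomes were left out, and the remaining autosomal peaks of each list were ranked by their fold enrichment, which is the height of the summit over the local background. A gene was represented by its highest-ranked peak with a summit within 1 kb of one of its curated RefSeq start sites. Of 24963 autosomal genes with such a start site, 15756 had a start-site peak in at least 1 list. The 13432 genes that had one in all 6 lists were compared.

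ATAC-seq uses the Tn5 transposase, which inserts sequencing adapters into DNA that is not wrapped tightly in nucleosomes. Start sites of expressed genes, and many CpG-rich start sites irrespective of expression, are kept free of nucleosomes by the transcription factors and the polymerase complexes that occupy them. They therefore give some of the tallest peaks of an ATAC-seq library. Both techniques collect nuclei that carry a fluorescent tag on the nuclear membrane. INTACT pulls them out of a suspension with magnetic beads that carry antibodies against the tag, and FANS sorts them one at a time in a flow cytometer on DNA stain and fluorescence.

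All 6 libraries came from mice that carried ArccreERT2(TG/WT) together with 1 or both copies of R26CAG-Sun1-sfGFP-Myc (M/WT, M/M), in which the promoter of the immediate early gene Arc drives a tamoxifen-dependent Cre that switches on the Sun1-sfGFP-Myc tag. The mice were males and females 13 to 16 weeks old, and they received tamoxifen 5 hours before a social interaction test. They were killed on day 3 after the tamoxifen and the test. The tagged cells are therefore those in which Arc was active around the test, and the labels call them activated neuronal nuclei. The 3 libraries of each technique were technical replicates of 1 biological source, and the labels give 50000 nuclei for each, although another passage of the study's methods gives a smaller number. SDs and p-values below measure the spread between these preparations and not between animals, and the techniques were not compared in untagged nuclei.

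The FANS lists held 120945, 126190 and 127267 autosomal peaks, and the INTACT lists held 109829, 96557 and 120198. Every INTACT list was shorter than every FANS list, and INTACT replicate 2 was the shortest. With 3 lists against 3, the exact two-sided permutation test gave p = 0.1 (adjusted p = 0.15 over 3 comparisons of whole lists), the smallest value that this design allows. The share of peaks at start sites was 11.8% ± 0.273 (SD, n = 3) in FANS samples and 12.7% ± 0.995 in INTACT samples, with ranges that overlapped (exact permutation p = 0.2, adjusted p = 0.2). In lists cut to the length of the shortest, the INTACT minus FANS difference turned from 0.848 to -0.233 percentage points. The peak lists give no read counts, so the sequencing depth behind a peak is unknown.

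Start-site peaks stood high in every list, but less high after INTACT. The percentile of a peak is its rank within its own list on a scale from 0 for the lowest to 100 for the highest peak. The median start-site peak stood at the 81.8th, 81.8th and 81.4th percentile of the FANS lists and at the 77.2th, 76.5th and 79.0th percentile of the INTACT lists, which is the smallest exact permutation p again (p = 0.1, adjusted p = 0.15). Over the 13432 genes, the median fold enrichment was 14.8, 14.9 and 14.9 in FANS samples and 11.9, 11.1 and 13.4 in INTACT samples. Percentiles of the genes were most alike within FANS (Pearson's r of the percentiles of 0.965 to 0.972 over genes, which are not independent replicates), followed by within INTACT (0.935 to 0.945) and between the techniques (0.866 to 0.902).

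**Figure D1:**
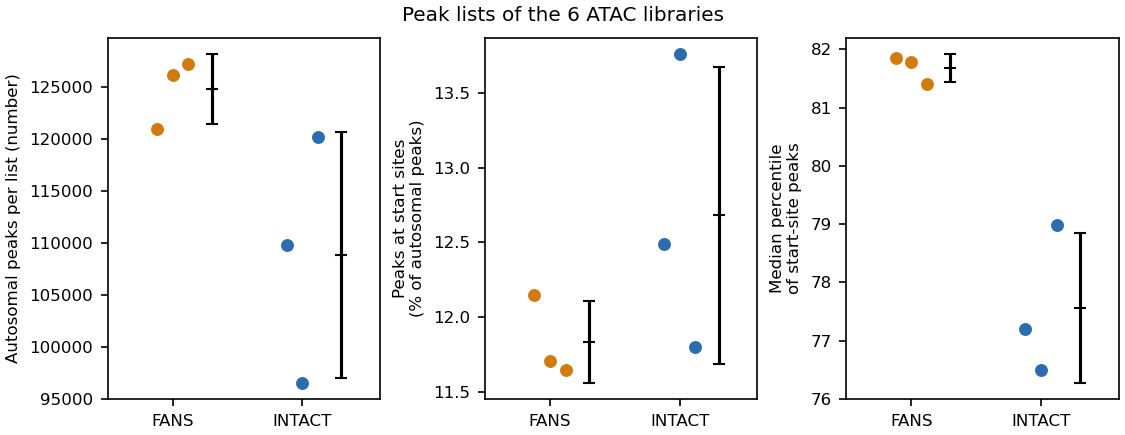
Autosomal peaks per list (number), peaks at start sites (% of autosomal peaks) and the median percentile of start-site peaks, each point being 1 list and each bar the mean ± SD of 3 lists; the vertical axes do not start at 0. The 3 INTACT lists sit below the 3 FANS lists in the first and last panels and overlap them in the middle panel.

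Gene by gene, 10347 genes (77.0%) had a lower mean percentile in INTACT, and the median difference was a fall of 3.02 points. The 3 lists of a technique spread around a gene's mean with a median SD of 1.47 points in FANS and 3.03 points in INTACT. For 5026 genes all 3 FANS percentiles lay above all 3 INTACT percentiles, which is 37.4% of the genes compared, and for 884 genes (6.58%) all 3 INTACT percentiles lay above. At an adjusted p-value under 0.05 (limma across all 13432 genes, Benjamini-Hochberg adjustment) 1911 genes, or 14.2%, were called higher in FANS and 232 genes, or 1.73%, higher in INTACT, and each of these also had lists that did not overlap. The called genes higher in FANS had a median percentile of 89.3 in FANS and 70.6 in INTACT, whereas those higher in INTACT had 88.4 and 94.6. Since a percentile depends on how many low peaks a list holds, the lists were also cut to the 96557 peaks of the shortest. The median difference was then -1.13 points over 12964 genes, with 25.1% higher in FANS and 11.0% higher in INTACT without overlap.

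The number of calls changed with the libraries included, whereas the size of the differences changed less. Without FANS replicate 1, 2 or 3 the calls fell to 256, 264 and 219 genes higher in FANS and to 24, 29 and 27 genes higher in INTACT. Without INTACT replicate 1 they were 1056 and 69, without INTACT replicate 2 they were 1640 and 166, and without INTACT replicate 3 they were 3822 and 347. The median difference stayed between -3.81 and -2.14 points in these 6 fits, which rest on fewer lists.

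The genes were also placed on a scale that leaves out a shift shared by all of them. When the 13432 genes were ranked only among themselves, which gives a gene-only percentile, the median difference was 0.94 points higher in INTACT. Every list has the same mean on this scale by construction. The balance over all genes therefore cannot show how much of the difference was shared. On this scale the INTACT lists lay above the FANS lists for 2993 genes (22.3%) and below them for 2084 genes (15.5%), and 1018 (7.58%) and 1085 (8.08%) genes were called. All 232 genes called higher in INTACT on the first scale were called again, and so were 1025 of the 1911 genes called higher in FANS, with 0 called in the opposite direction. The balance of the directions depends on the scale, so both are given for the gene classes below.

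**Figure D2:**
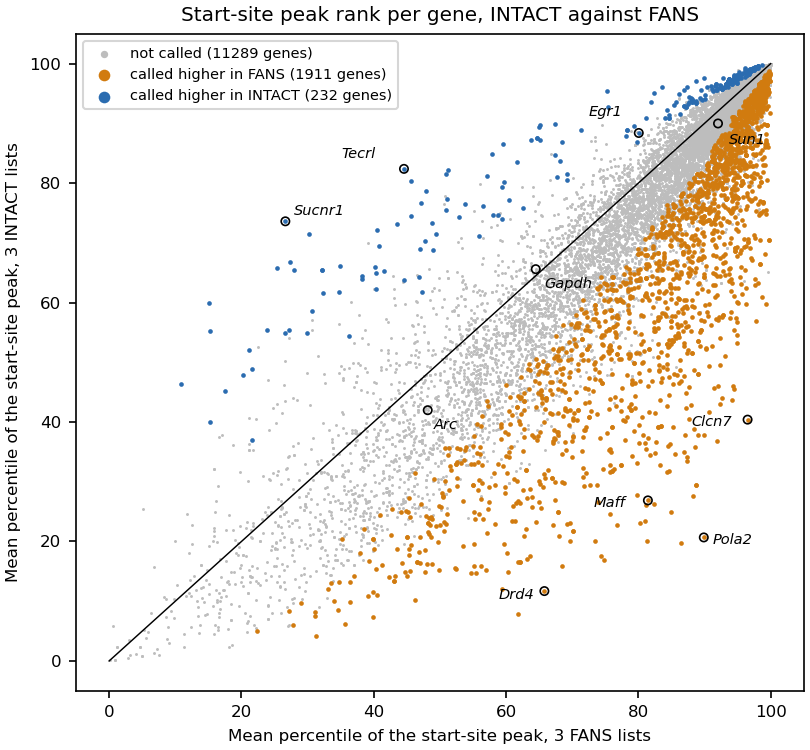
Each point is 1 gene, with the mean percentile of its start-site peak over the 3 FANS lists on the horizontal axis and over the 3 INTACT lists on the vertical axis; coloured points are the 1911 genes called higher in FANS and the 232 called higher in INTACT, and the line marks equal means. Genes called higher in FANS reach far below the line at middle and high ranks, whereas most genes called higher in INTACT lie close to it near the top.

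Among genes higher in INTACT, Sucnr1 moved farthest. It encodes the cell surface receptor for succinate and lies at chr3:60081869-60087566 (GRCm38.p6, plus strand). Its start-site peak stood at percentiles of 20.8, 28.0 and 31.1 in FANS and 75.2, 69.8 and 75.8 in INTACT, a rise of 47.0 points (SE 4.29, adjusted p = 0.00289). The fold enrichment behind these ranks was 4.06, 4.49 and 4.81 in FANS and 10.2, 8.86 and 10.8 in INTACT. A low peak of the FANS lists was thus a peak well above the middle of the INTACT lists, with no overlap.

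Of the named protein-coding genes with a mean percentile of at least 50 in INTACT, the next was Neil3, a DNA glycosylase, with 10.8, 41.5 and 38.3 against 65.6, 68.0 and 81.0. Agmo, which cleaves ether lipids, stood at 20.8, 35.1 and 26.0 against 61.9, 74.7 and 63.9. Tecrl stood at 41.1, 39.5 and 53.1 against 77.7, 84.1 and 85.3. The remaining genes of the 10 were Slc45a2, Spata48, Fn1 (fibronectin), Mmp12 (a macrophage elastase), Frem3 (an extracellular matrix protein) and Pter, which rose by 30.9 to 37.4 points. The calls of 5 of the 10 depended on the libraries: Neil3 was not called in 4 of the 6 fits without 1 library (adjusted p up to 0.0684), Mmp12 in 3 (up to 0.0829), and Spata48 (up to 0.0684), Frem3 (up to 0.0529) and Pter (up to 0.092) in 2 each. The 100 kb around the start sites of the 10 genes had a GC content of 36.0 to 43.1%, each below the median of 44.9% over all genes compared, a property that was looked at after the values were seen.

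Among genes higher in FANS, Pola2 moved farthest. It encodes the second subunit of the DNA polymerase that primes replication and lies at chr19:5940543-5964238 on the minus strand. Its percentiles were 87.2, 90.8 and 91.6 in FANS and 23.6, 13.2 and 25.3 in INTACT, which is a difference of -69.2 points for INTACT minus FANS (SE 4.34, adjusted p = 0.00193). Clcn7, a lysosomal chloride and proton exchanger, fell from the top of the FANS lists (97.2, 95.3 and 96.9) to 40.7, 37.1 and 43.4 in INTACT (difference -56.1, SE 3.04, adjusted p = 0.00118). The FANS lists differed little among themselves for both genes, and no INTACT list came near them.

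The other 8 of the named protein-coding genes were Nup85, a scaffold protein of the nuclear pore, Rad54l2, a chromatin remodelling ATPase, Glod4 and Mrm3, Pigq, which acts in the synthesis of membrane anchors, the transcription factor Twist2, the synaptic adhesion protein Lrfn3 and Nploc4, a cofactor of the VCP ATPase in protein degradation. Their differences ran from -60.7 to -56.0 points. Glod4 and Mrm3, which modifies mitochondrial ribosomal RNA, share 1 peak on chromosome 11, so their values are the same measurement (89.3, 89.4 and 87.7 against 23.6, 17.3 and 47.7). Of the 13432 genes, 3240 shared their peak with another gene in this way. In the lower part of the INTACT lists many peaks have the same fold enrichment and share 1 mean rank, which is why values such as 17.3 and 23.6 recur.

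**Figure D3:**
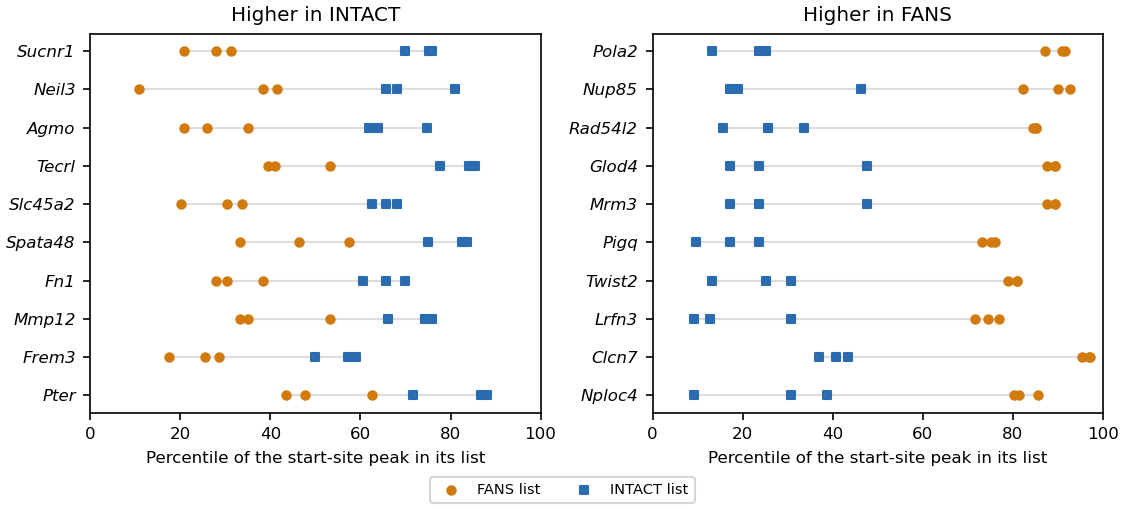
Percentile of the start-site peak in each of the 3 FANS lists and 3 INTACT lists for the 10 protein-coding genes with the largest difference in each direction. The genes were chosen among those whose lists do not overlap between the techniques. The FANS points lie closer together in the right panel than the INTACT points.

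Promoter sequences are shown for the genes that the results on sequence turn on. They are the 250 bases before and 50 bases from the start site in GRCm38.p6 (RefSeq), written in the direction of transcription. The first 3 belong to genes whose INTACT lists lay above the FANS lists, the histone genes H2bc14 (chr13:21721794-21722093, plus strand) and H2bc15 (chr13:21753826-21754125, plus strand) and the heat shock gene Hsph1 (chr5:149636287-149636586, minus strand), and capitals mark, on either strand, the letters CCAAT with a C or G next and an A or G after that, a form of the CCAAT box that the factor NFY binds, while other CCAAT letters are left in lower case. Sucnr1 (chr3:60081619-60081918, plus strand) is the gene with the largest rise and has no match to the NFY, STAF, NRF1 or CRE letters, while it matches the AP1 letters TGACTCA, which are not marked. In Glod4 (chr11:76243650-76243949, minus strand) capitals mark the cyclic AMP response element (CRE), and in Nploc4 (chr11:120437651-120437950, minus strand) they mark the NRF1 letters, which match on both strands at overlapping places.
H2bc14: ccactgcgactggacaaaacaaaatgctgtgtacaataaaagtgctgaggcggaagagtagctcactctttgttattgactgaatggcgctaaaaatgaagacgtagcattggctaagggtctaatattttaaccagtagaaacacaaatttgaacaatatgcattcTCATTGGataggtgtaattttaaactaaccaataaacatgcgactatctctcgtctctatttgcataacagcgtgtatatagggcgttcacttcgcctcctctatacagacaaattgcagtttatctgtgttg
H2bc15: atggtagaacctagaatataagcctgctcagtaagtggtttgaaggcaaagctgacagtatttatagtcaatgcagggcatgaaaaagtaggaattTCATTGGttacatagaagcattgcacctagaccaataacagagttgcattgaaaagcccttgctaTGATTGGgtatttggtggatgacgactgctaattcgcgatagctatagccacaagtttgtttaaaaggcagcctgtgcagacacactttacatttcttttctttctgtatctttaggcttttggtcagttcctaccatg
Hsph1: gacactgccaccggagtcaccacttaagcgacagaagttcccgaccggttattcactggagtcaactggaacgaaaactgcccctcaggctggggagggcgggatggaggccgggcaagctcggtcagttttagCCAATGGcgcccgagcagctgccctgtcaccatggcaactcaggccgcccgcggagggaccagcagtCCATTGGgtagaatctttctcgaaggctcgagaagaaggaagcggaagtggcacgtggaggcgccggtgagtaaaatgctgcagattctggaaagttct
Sucnr1: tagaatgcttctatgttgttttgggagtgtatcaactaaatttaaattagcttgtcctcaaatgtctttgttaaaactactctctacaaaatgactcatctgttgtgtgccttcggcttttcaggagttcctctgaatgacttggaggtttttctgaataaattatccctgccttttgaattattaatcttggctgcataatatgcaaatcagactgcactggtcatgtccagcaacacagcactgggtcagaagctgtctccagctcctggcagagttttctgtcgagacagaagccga
Glod4: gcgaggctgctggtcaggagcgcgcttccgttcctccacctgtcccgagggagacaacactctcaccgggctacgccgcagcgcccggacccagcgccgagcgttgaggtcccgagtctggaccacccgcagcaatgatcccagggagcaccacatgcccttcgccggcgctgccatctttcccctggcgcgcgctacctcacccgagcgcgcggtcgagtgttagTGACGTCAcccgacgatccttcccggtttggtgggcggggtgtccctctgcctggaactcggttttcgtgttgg
Nploc4: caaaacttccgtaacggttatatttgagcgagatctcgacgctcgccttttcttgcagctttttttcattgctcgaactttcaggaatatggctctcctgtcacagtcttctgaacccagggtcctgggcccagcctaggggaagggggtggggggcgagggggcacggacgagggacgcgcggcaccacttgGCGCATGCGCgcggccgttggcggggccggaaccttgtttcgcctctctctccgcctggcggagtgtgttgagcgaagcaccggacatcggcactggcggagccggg

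Gene classes were described by how many of their members stood apart in each direction, to be read against 6.58% higher in INTACT and 37.4% higher in FANS over all genes, or 22.3% and 15.5% by gene-only percentiles, or 11.0% and 25.1% in lists of equal length. Of 38 classes with at least 5 genes compared, 36 had more members higher in FANS than in INTACT. By gene-only percentiles this held for 14 of 38. These counts are descriptions, and no class was tested as a set. Counts of called genes are to be read against 1.73% called higher in INTACT and 14.2% higher in FANS over all genes. By gene-only percentiles these shares were 7.58% and 8.08%.

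Histone genes were the class with the largest share higher in INTACT by gene-only percentiles among the 38. Histones package DNA into nucleosomes, and the replication-dependent genes lie in clusters, the largest of them on chromosome 13. Of 60 histone genes compared, 10 (16.7%) were higher in INTACT in all lists and 9 (15.0%) higher in FANS. The median difference was a rise of 0.50 points, but it was -0.63 points with each shared peak counted once. By gene-only percentiles 41 (68.3%) were higher in INTACT and 0 higher in FANS, with 19 called, and in lists of equal length 24 of 59 (40.7%) were higher in INTACT and 2 (3.39%) higher in FANS. The 45 genes on chromosome 13 gave 34 of these 41, the 7 on chromosome 3 gave 4, and the 8 on other chromosomes gave 3.

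H2bc14 stood at percentiles of 86.6, 90.3 and 87.4 in FANS and 92.4, 92.9 and 91.7 in INTACT (difference 4.22, SE 1.39, adjusted p = 0.076). H2bc15 stood at 88.6, 88.4 and 88.2 against 92.8, 90.7 and 92.0 (difference 3.44, SE 1.2, adjusted p = 0.0875). Both were apart without overlap but did not pass the test on this scale. H4c17 passed it in the direction of INTACT (24.1, 39.5 and 33.6 against 61.9, 66.2 and 56.7, adjusted p = 0.0152), and H4c9 in the direction of FANS (63.6, 64.1 and 63.1 against 53.0, 42.1 and 50.9, adjusted p = 0.0455).

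Several histone genes share 1 peak. With each peak counted once, 32 of 51 were higher in INTACT by gene-only percentiles and 0 higher in FANS, and on the first scale 7 were higher in INTACT and 9 in FANS. The genes are also similar to each other in sequence, and whether reads were lost between copies was not tested. Of the 44 histone genes with NFY letters in the promoter, 34 were higher in INTACT by gene-only percentiles, and of the 16 without them 7 were.

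Olfactory and vomeronasal receptor genes, which are silent outside the olfactory system, had few peaks. Of 1453 genes, 42 had a start-site peak in at least 1 list and 22 in all 6. Of these 22, 9 (40.9%) were higher in INTACT and 1 (4.55%) higher in FANS, and by gene-only percentiles 10 and 0. The 5 that were called (22.7%, against 1.73% of all genes), named after their values were seen, were Olfr95, Olfr110, Olfr763, Olfr1107 and Vmn2r120. Vmn2r120 stood at 24.1, 22.9 and 17.6 in FANS and 46.4, 47.0 and 53.3 in INTACT (difference 27.4, SE 4.32, adjusted p = 0.011), and its nuclear RNA was listed at 0 in the 8 libraries of batch 1.

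Activity-regulated genes bear on the tag itself, since Arc, Fos, Egr1 and their targets are switched on by neuronal firing. Of 41 compared, 1 was called in each direction, while 12 (29.3%) were higher in FANS and 1 (2.44%) higher in INTACT without overlap. By gene-only percentiles 14 (34.1%) were higher in INTACT and 1 (2.44%) higher in FANS. In lists of equal length the direction turned as well, with 6 of 38 (15.8%) higher in INTACT and 1 (2.63%) higher in FANS. Egr1, an immediate early transcription factor, was the one called higher in INTACT, with 82.4, 78.5 and 79.2 in FANS and 89.5, 88.0 and 87.7 in INTACT (difference 8.33, SE 2.04, adjusted p = 0.036). Maff, a small basic leucine zipper factor, was the one called higher in FANS, with 77.6, 79.0 and 87.7 against 30.8, 37.1 and 12.7 (difference -54.6, SE 6.68, adjusted p = 0.00571).

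Arc, whose promoter drives the Cre, had only a peak of middle height at its own start site (49.2, 49.5 and 45.8 in FANS, 39.7, 36.0 and 50.2 in INTACT). The lists overlapped, and the difference of -6.18 points (SE 4.77) did not pass the test (adjusted p = 0.367), with the opposite sign by gene-only percentiles (2.62). Sun1, a protein of the inner nuclear membrane and part of the tag, gave 93.9, 90.2 and 92.0 against 89.4, 88.5 and 92.0 (adjusted p = 0.336). Gapdh, a glycolytic enzyme, gave 64.9, 60.8 and 67.8 against 66.7, 65.6 and 64.5 (adjusted p = 0.827).

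Among genes of neuronal signalling, several classes had a larger share higher in FANS than the 37.4% of all genes on the first scale. Of 25 sodium and calcium channel genes, which set excitability and transmitter release, 14 (56.0%) were higher in FANS and 0 higher in INTACT, with 6 called (24%, against 14.2% of all genes), and the median fall was 11.1 points. Of 27 receptors for transmitters that signal through G-proteins, 14 (51.9%) were higher in FANS and 1 higher in INTACT, with 6 (22.2%) called. Of 59 potassium channel genes 27 (45.8%) were higher in FANS with 8 (13.6%) called. Of 40 genes of synaptic vesicle release 18 (45.0%) were higher in FANS with 6 (15%) called. By calls the potassium channel and vesicle release genes were near the 14.2% of all genes. By gene-only percentiles these 4 classes were near the background, with 5 of 25, 5 of 27, 9 of 59 and 6 of 40 higher in FANS. In lists of equal length the same counts were 6 of 21, 7 of 24, 11 of 55 and 8 of 37, against 25.1% of all genes.

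Drd4, a dopamine receptor, showed the largest change among the G-protein receptors, with 69.1, 64.8 and 63.5 in FANS and 8.12, 17.3 and 9.67 in INTACT (difference -54.1, SE 4.39, adjusted p = 0.00268). Kcng1, a modifier subunit of potassium channels, gave 57.9, 60.5 and 59.6 against 4.88, 9.25 and 22.2 (adjusted p = 0.00426). Scn4b, an auxiliary sodium channel subunit, gave 69.7, 69.9 and 74.9 against 49.0, 13.2 and 43.4 (adjusted p = 0.036). Each was chosen among the called genes without overlap, and the INTACT lists of Scn4b were spread most widely.

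The glutamate receptor genes stood near the background by non-overlap, with 7 of 18 (38.9%) higher in FANS. Of them 4 (22.2%, against 14.2% of all genes) were called, named after their values were seen as Gria1, Grik4, Grin1 and Grm6. By gene-only percentiles 5 were higher in INTACT and 1 higher in FANS. The GABA-A receptor genes stood below the background, with 2 of 12 (16.7%) higher in FANS and 0 called by limma, and 3 were higher in INTACT and 0 higher in FANS by gene-only percentiles. A list of synaptic adhesion genes, which join the membranes of the synapse and which did not include Lrfn3, also stood below it with 6 of 23 (26.1%) higher in FANS and 0 called by limma, and 11 of them (47.8%) were higher in INTACT by gene-only percentiles against 0 higher in FANS. In lists of equal length 5 of 22 synaptic adhesion genes were higher in INTACT and 3 higher in FANS. The median GC content of the 100 kb around the start site was 38.6% for GABA-A receptor genes and 39.5% for synaptic adhesion genes, and it was 39.6% for glutamate receptor genes too, against 46.2% for both classes of ion channel genes. Of the clustered protocadherins, adhesion proteins chosen at random by single neurons, 6 of 10 were higher in FANS, with 2 called, Pcdhga9 and Pcdhgb6, and 3 of 10 by gene-only percentiles.

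The classes of genes used by every cell lay on both sides of the background. Of 72 cytosolic ribosomal protein genes 33 (45.8%) were higher in FANS and 4 (5.56%) higher in INTACT, with 16 (22.2%) and 2 (2.78%) called against 14.2% and 1.73% of all genes. Rpl4 gave 77.9, 81.7 and 68.6 in FANS against 34.3, 13.2 and 47.7 in INTACT, whereas Rps19 gave 89.1, 89.4 and 90.4 against 94.8, 93.9 and 92.9. The mitochondrial ribosomal protein genes had 32 of 78 (41.0%) higher in FANS and 17 (21.8%) called, and the genes of oxidative phosphorylation 36 of 74 (48.6%) and 15 (20.3%) called, with 0 called higher in INTACT in either class. By gene-only percentiles 22.2, 25.6 and 21.6% of the 3 classes were higher in FANS and 19.4, 19.2 and 13.5% higher in INTACT. The proteasome, which degrades proteins, had 12 of 34 genes (35.3%) higher in FANS with 5 (14.7%) called, and the enzymes that load tRNAs had 13 of 37 (35.1%) with 1 (2.7%) called, and by gene-only percentiles 6 genes of each class were higher in FANS and 3 higher in INTACT. Most start-site peaks of the ribosomal and oxidative phosphorylation classes were tall, with median percentiles of 91.8, 91.9 and 92.6 in FANS.

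The next classes make and process mRNA. Of 73 genes of the general transcription machinery 33 (45.2%) were higher in FANS and 2 (2.74%) higher in INTACT. Of these 73 genes 15 (20.5%) and 1 (1.37%) were called, against 14.2% and 1.73% of all genes. By gene-only percentiles 28.8% were still higher in FANS. Gtf2h3, a subunit of the general factor TFIIH, shares its peak with Eif2b1, a translation factor (90.7, 90.2 and 86.2 against 40.7, 37.1 and 66.4, adjusted p = 0.0159). Of 88 genes of splicing and mRNA processing 30 (34.1%) were higher in FANS and 8 (9.09%) higher in INTACT, with 17 (19.3%) and 2 (2.27%) called. By gene-only percentiles 19.3% were higher in FANS and 25% higher in INTACT. Hnrnpl, a splicing regulator, was one of those higher in INTACT, with 80.3, 80.3 and 78.8 against 86.8, 86.2 and 87.6.

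Genes of protein folding gave small counts. Of 35 genes of endoplasmic reticulum stress and folding 6 (17.1%) were higher in INTACT and 10 (28.6%) higher in FANS, with 0 and 3 called, and by gene-only percentiles 10 (28.6%) and 5 (14.3%). Of 19 heat shock genes 2 were higher in INTACT and 4 higher in FANS, with 1 and 3 called, and by gene-only percentiles 4 (21.1%) and 3 (15.8%), near the shares over all genes. Hsph1, a large chaperone, stood at 89.6, 89.8 and 88.6 in FANS and 94.2, 95 and 93.7 in INTACT (difference 4.92, SE 0.984, adjusted p = 0.0213). Hspa1b, an inducible chaperone with a near-identical neighbour Hspa1a, gave 71.4, 80.7 and 84.9 against 53.8, 25.6 and 59.7 (adjusted p = 0.0457).

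Regulators of chromatin had larger shares than all genes in both directions on the first scale. Of 99 chromatin regulators 43 (43.4%) were higher in FANS and 11 (11.1%) higher in INTACT, and by gene-only percentiles 14 (14.1%) and 27 (27.3%), with Kat2a, a histone acetyltransferase, at 75.0, 64.0 and 71.6 against 25.9, 41.6 and 44.9, and Kat6b, another acetyltransferase, at 87.8, 87.5 and 87.6 against 93.8, 94.3 and 92.6. Of 360 Zfp genes 116 (32.2%) were higher in FANS and 22 (6.11%) higher in INTACT, and by gene-only percentiles 17.5% and 21.7%. All 7 keratin genes that could be compared were higher in FANS on the first scale and 4 (57.1%) by gene-only percentiles, 2 were called, and Krt222 stood at 92.2, 90.3 and 88.1 against 63.8, 29.6 and 63.9.

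**Figure D4:**
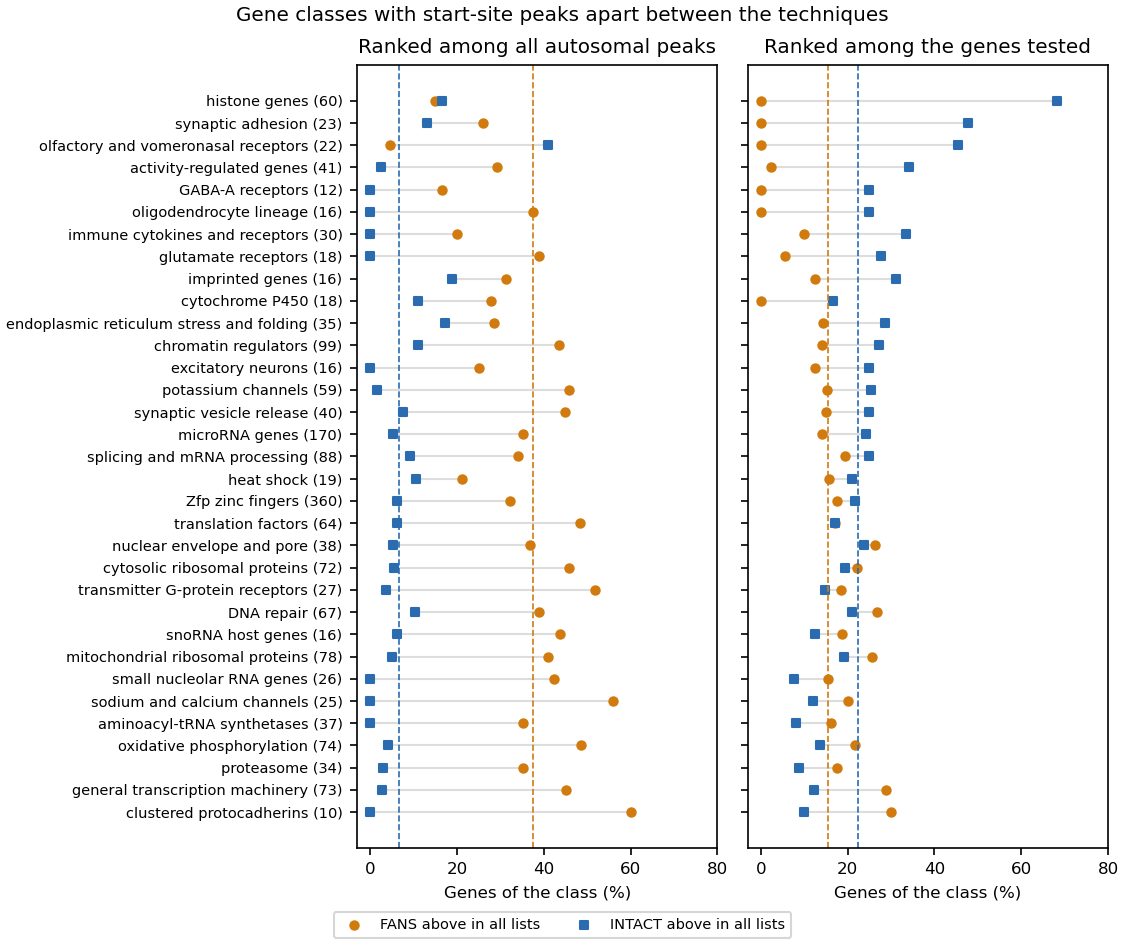
Share of the genes of each class (%, with the number of genes compared in brackets) whose start-site peak ranked higher in all 3 lists of one technique, ranked among all autosomal peaks (left) or only among the genes compared (right), for classes with at least 10 genes; dashed lines mark the shares over all genes. Histone genes lie farthest toward INTACT in the right panel, at 68.3% against 0%.

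The cell type markers addressed the label of the nuclei. Of 19 markers of excitatory neurons 18 had a start-site peak in every FANS list and 16 to 18 in the INTACT lists, and the 16 compared had a median percentile of 60.3 in FANS and 47.0 in INTACT. Slc17a7, a vesicular glutamate transporter, had 12.7, 13.0 and 13.1 in FANS, 0.309 in INTACT replicate 1 and no peak in the other two. Camk2a, a kinase of excitatory synapses, had 67.5, 70.8 and 69.7 against 72.6, 70.6 and 69.5. Among 19 markers of inhibitory neurons 15 to 16 had a peak in the FANS lists and 8 to 12 in the INTACT lists, and Sst and Vip had none.

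Among 19 astrocyte markers 14 had a peak in each FANS list and 9 to 10 in the INTACT lists, with Gfap and Aqp4 in no list. Markers of the oligodendrocyte lineage were alike in number (18 of 23 in FANS, 16 to 18 in INTACT). Of 20 microglial markers 15 had a peak in no list, among them Cx3cr1 and P2ry12, and of 27 vascular markers 13 had none. The summed percentiles of the inhibitory markers were 610.4 to 646.6 in FANS and 321.0 to 485.9 in INTACT, and those of the astrocyte markers 732.4 to 765.8 and 500.4 to 564.0. Excitatory markers fell too, with 898 to 965.6 against 737 to 832.3, and so did vascular markers, with 442 to 493.3 against 313.4 to 390.1. The sums of oligodendrocyte and microglial markers overlapped between the techniques. Over all genes, 14943 to 15083 had a start-site peak in the FANS lists and 13927 to 14513 in the INTACT lists. This is a smaller relative difference than that in the number of inhibitory and astrocyte markers with a peak. The part of cell composition in the results was not tested. Fewer nuclei of a type and a lower peak per nucleus cannot be told apart in these bulk libraries.

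By non-overlap of the lists, 4 of 16 excitatory markers compared, 3 of 7 inhibitory, 3 of 8 astrocyte, 6 of 16 oligodendrocyte, 1 of 4 microglial and 2 of 7 vascular markers were higher in FANS, and 1 vascular marker was higher in INTACT. By gene-only percentiles the balance turned, as it did over all genes (22.3% higher in INTACT and 15.5% higher in FANS). Of the 6 types 4, 2, 3, 4, 2 and 3 markers were higher in INTACT and 2, 0, 1, 0, 0 and 0 higher in FANS. The median gene-only difference was 2.15 points for excitatory and 3.02 points for astrocyte markers, higher in INTACT, and -0.47 points for inhibitory markers, against 0.94 points over all genes.

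Of the excitatory markers 2 of 16 (12.5%) were called higher in FANS, of the inhibitory markers 1 of 7 (14.3%) and of the astrocyte markers 1 of 8 (12.5%), near the 14.2% of all genes. Among the called markers were Cux2 (66.2, 63.8 and 67.4 against 15.7, 47.0 and 31.1) and Rasgrf2 of excitatory neurons and Ntsr2 of astrocytes (72.3, 76.7 and 73.1 against 55.5, 52.0 and 60.9), each higher in FANS. Abcc9, a marker of pericytes, was called higher in INTACT (7.71, 4.54 and 20.4 against 46.4, 47.0 and 45.5, adjusted p = 0.00883). No marker of oligodendrocytes or microglia was called on this scale.

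The difference went with the base composition of the region, a description that was chosen after the data were seen. In 5 bins of equal size by the GC content of the 100 kb around the start site, the share of genes higher in FANS was 21.1, 30.8, 37.5, 47.0 and 50.8% from the lowest to the highest GC content, and the share higher in INTACT was 10.7, 8.30, 5.25, 4.10 and 4.58%. The median difference went from -0.72 to -6.68 points. The called genes had a median regional GC content of 42.7% when higher in INTACT and 47.2% when higher in FANS. The GC content of the promoter itself separated them less in the direction of FANS, with medians of 56.0, 61.3 and 61.7% for genes higher in INTACT, higher in FANS and all genes compared.

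Chromosomes differed as well. On chromosome 11, which is rich in genes, 590 of 1073 genes (55.0%) were higher in FANS and 40 (3.73%) higher in INTACT, with a median difference of -6.25 points. There 310 genes (28.9%, against 14.2% of all genes) were called higher in FANS. Chromosome 13 was at the other end, with 23.4% higher in FANS, close to 23.9% on chromosome 3. Within the 5 GC bins the share higher in FANS was 39.3, 43.2, 57.0, 56.4 and 62.4% on chromosome 11 and 20.4, 30.1, 36.0, 45.8 and 49.1% on the other autosomes, so that chromosome 11 stood above the rest in every bin. What sets chromosome 11 apart was not tested.

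Known letters of factor binding sites were looked up in the promoter sequences, on both strands. NFY, a factor that binds CCAAT boxes, was searched as the letters CCAAT with a C or G next and an A or G after that, which occur in 18.2% of all 30219 curated promoters and in 23.6% of the genes compared. Among the 3170 genes with a match 11.0% were higher in INTACT and 30.0% higher in FANS, against 5.22% and 39.7% of the 10262 without. NFY letters were present in 39.7% of the genes called higher in INTACT and in 17.8% of those called higher in FANS.

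For NFY this held in each of the 5 GC bins. The share higher in INTACT was 13.9, 14.9, 10.1, 7.40 and 9.32% with NFY letters and 9.76, 6.44, 3.76, 3.01 and 2.98% without. The share higher in FANS was 17.2, 23.4, 30.7, 37.9 and 39.1% with them and 22.3, 32.8, 39.6, 50.0 and 54.7% without. The 551 genes with the letters ACTACAA of the factor STAF leaned the same way, with 14.7% higher in INTACT and 26.5% higher in FANS, except in the bin of highest GC content, where 4.27% were higher in INTACT with the letters and 4.59% without.

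Genes with the NRF1 letters GCATGCGC or the CRE letters TGACGTCA leaned the other way. NRF1 regulates genes of respiration and the CRE is bound by CREB, a factor that responds to neuronal activity. Of 720 genes with NRF1 letters 47.2% were higher in FANS and 3.75% higher in INTACT, and of 497 genes with the CRE 48.5% and 3.62%. CRE promoters stood above the others in the share higher in FANS in all 5 GC bins, with 24.6, 46.6, 55.9, 64.2 and 56.5% against 21.0, 30.1, 36.8, 46.4 and 50.6%. The median difference was lower with the CRE in every bin except bin 4, where it was -4.57 against -5.00 points. With NRF1 letters it was lower only in bins 2 and 3, and in bin 5 it was -5.71 against -6.75 points. Genes with YY1 letters leaned toward FANS as well, with 43.4% higher in FANS and 19.9% called higher in FANS. By gene-only percentiles 25.3% with NRF1 letters, 23.9% with the CRE and 22.1% with YY1 letters were higher in FANS, against 15.5% of all genes. On the first scale the letters of ETS (39.2% higher in FANS), SP1 (39.0%), MEF2 (37.9%), RFX (37.6%), TATA (36.5%), AP1 (36.2%) and EBOX (35.3%) stayed closer to the background. A match describes the sequence and does not show that the factor was bound, and the parts of neighbouring letters and of peak height were not tested.

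**Figure D5:**
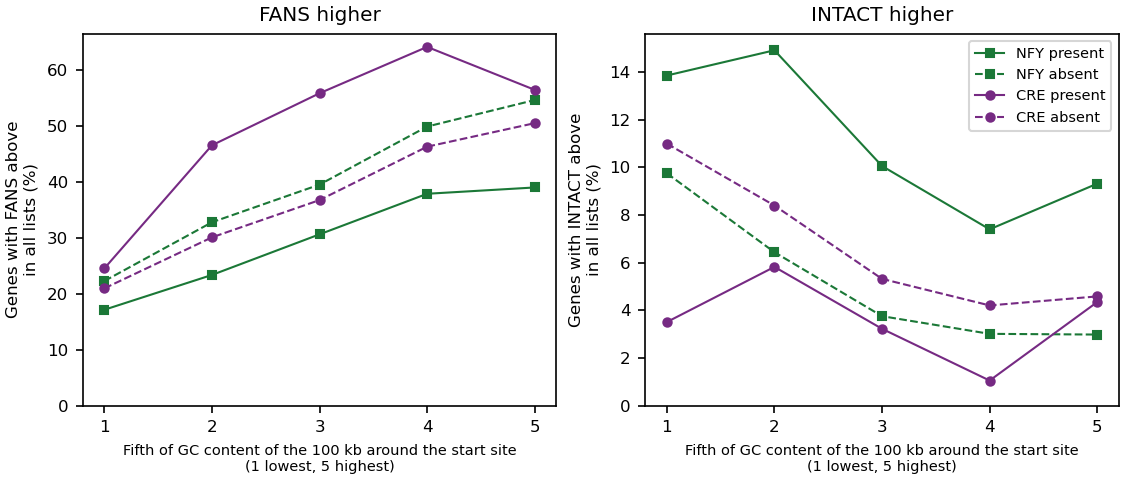
Share of genes (%) with FANS above INTACT in all lists (left) and with INTACT above FANS (right) in 5 bins of equal size by the GC content of the 100 kb around the start site, for promoters with and without the NFY and the CRE letters; the vertical scales differ. The share higher in FANS rises with GC content in the lines without the letters and with NFY, whereas with the CRE it falls from 64.2% to 56.5% between the last bins, and in every bin the NFY promoters lie below those without the letters on the left and above them on the right.

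Called genes also differed in the shape of their peaks. The summit of genes higher in INTACT lay a median of 101 bases upstream of the start site in the FANS lists, against 5.67 bases upstream for genes higher in FANS and 25.7 bases over all genes compared. Peaks of genes called higher in FANS were 868 bases wide in FANS and 733 bases in INTACT in the median, against 950 and 904 bases over all genes compared, whereas those of genes called higher in INTACT kept a similar width (864 and 852 bases). A start site of another gene lay on the opposite strand within 1 kb for 28.0% of the genes called higher in INTACT and 18.4% of those called higher in FANS, beside 3179 of all 13432 genes.

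Few genes had a start-site peak in the lists of one technique only. In all 3 FANS lists and no INTACT list there were 350 genes, and in all 3 INTACT lists and no FANS list there were 29. In lists of equal length these were 183 and 51 genes. Most of these peaks were low, with a median percentile of 24.9 for the first group and 21.4 for the second, and presence follows the number of peaks that a list holds. The protein-coding gene with the highest mean in FANS among them was Acaca, the rate-limiting enzyme of fatty acid synthesis (71.6, 78.2 and 78.4), and Aldoc, a glycolytic enzyme used as an astrocyte marker, had 68.8, 66.0 and 70.9. Prss34, a mast cell protease, had 14.2, 46.9 and 23.2. Of 17 inhibitory neuron markers with a peak in any list 3 were FANS-only, and of 15 astrocyte markers 4, beside 350 of 15756 genes in all. Gad1 and Pvalb, 2 of these inhibitory markers, were present in FANS at percentiles of 6.19 to 17.6 and absent from INTACT, and the potassium channel gene Kcnc1 was present in INTACT (38.5, 35.5 and 40.2) and absent from FANS.

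Nuclear RNA of the same kind of nuclei was used as a description of the called genes. The 4 FANS and 4 INTACT RNA libraries of batch 1 gave normalized counts, which were divided by the length of the longest curated transcript, since levels of different genes are compared here. On the scale of log2(normalized count per kb + 1) the median was 4.96 in FANS nuclei for genes with peaks higher in INTACT, 5.84 for genes with peaks higher in FANS and 5.98 for all genes compared. In INTACT nuclei the medians were 4.93, 5.86 and 6.0. The order of the groups depended on genes with little RNA. Without genes under a mean of 5 normalized counts, and not divided by length, the medians of log2(normalized count + 1) were 7.28 for genes with peaks higher in INTACT and 7.24 for those higher in FANS in FANS nuclei, and 7.43 and 7.29 in INTACT nuclei. Sucnr1, Neil3 and Mmp12 were listed at 0 in all 8 libraries. The part of the RNA level in the difference between the peak lists was not tested. A row in the RNA table was found for 88.4% of the genes called higher in INTACT and 95.6% of all genes compared.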

How the data were processed

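ATAC-seq libraries of 50000 nuclei each, per the labels, were available for FANS-nuclei and INTACT-nuclei, 3 technical replicates of 1 source per technique. The authors trimmed reads, aligned them to mm10 with Bowtie2, kept well-mapped pairs, removed duplicates and called peaks in each library with MACS2, without pooling. The settings of the peak calling and any shift of reads for the transposase are not given in the sources used here. Each deposited list holds, per peak, a score, the fold enrichment at the summit (a ratio over the local background), the −log10 p-value and q-value, and the summit position. The lists hold no read counts, so depth is unknown. Fold enrichment depends on depth and on the background of a library, which is why ranks within a list were compared.

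Peaks on chromosomes X and Y were left out before ranking by fold enrichment, with tied values given their mean rank. Start sites came from 43783 curated RefSeq transcripts of GRCm38.p6, the assembly behind mm10. Percentiles of genes with a peak in all 6 lists were tested with limma 3.58.1 (lmFit and eBayes with trend, R 4.3.3), with p-values adjusted by the Benjamini-Hochberg method over all genes and a threshold of 0.05, and the procedure was tested on simulated data. Whole lists were compared by exact permutation tests (scipy 1.17.1). Other steps used Python 3.11.15 and pandas 2.3.3. Promoter motifs were searched on the genome sequence, and the RefSeq promoter table matched 10600 of the genes compared.

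The RNA level came from the deposited table of batch 1, in which the authors divided read counts per gene by 1 size factor per library (a normalized signal), on the scale log2(value + 1). The other 2 RNA tables, planned for use, were not used here because their header lines could not be read by column.

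The genes named are the 10 protein-coding genes with the largest difference in each direction among those called without overlap and with a mean percentile of at least 50 in the higher technique, leaving out symbols of unnamed genes, the called gene with the largest difference in each direction in each class, Arc, Sun1, Gapdh, Sucnr1, Prss34 and the cell type markers. The comparison, the 40 gene classes and the 12 motifs, some of which the study's own motif analysis had named, were chosen with earlier results of these data known. Other genes named, among them the histone genes H2bc14 and H2bc15, Acaca and Kcnc1, were chosen after their values were seen. Alternatives covered the ranking column, list length, window, gene models, peak assignment, scale, a replicate block and leaving out each library.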

Additional observations from a re-analysis of the deposited data

Results flagged for a closer look

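In the 4 INTACT RNA libraries of batch 1, the median RNA level of the genes with peaks called higher in INTACT was 6.39 in library 1 and 6.20 to 6.22 in the other libraries, on the scale of log2(normalized count + 1). The gap of library 1 to its nearest neighbour was 0.926 of the range of the 4 libraries, above the 95% limit for a single far value. Chance alone flags about 1 in 20 groups.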

How the results depend on the processing

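The balance of the directions depended on the ranking. Genes called higher in INTACT numbered 232 as reported, 1504 when peaks were ranked by q-value, 368 with lists cut to equal length, 1018 by gene-only percentiles, 100 with the replicate number as a block, and 24 to 347 without 1 library. Genes called higher in FANS numbered 1911 as reported, 7171 by q-value, 1085 by gene-only percentiles, 1097 with the replicate block, and 219 to 3822 without 1 library. Genes higher in INTACT were 10.8% of all calls as reported, 17.3% by q-value, 21.2% at equal length and 48.4% by gene-only percentiles. The replicate numbers did not pair the libraries (correlations of deviations of same-numbered libraries of -0.021, -0.010 and 0.008). The INTACT minus FANS share of peaks at start sites was 0.848 percentage points as reported and -0.233 at equal length. Genes with peaks in INTACT only numbered 29, and 51 at equal length and 50 with all gene models; genes with peaks in FANS only numbered 350, and 183 at equal length. Classes with more genes higher in FANS numbered 36 of 38, and 14 by gene-only percentiles. The RNA level of genes called higher in INTACT minus that of all genes, on the log2 scale, was -1.16 in FANS-nuclei and -1.19 in INTACT-nuclei, -0.313 and -0.203 when genes under a mean of 5 normalized counts were dropped, and -1.02 and -1.07 per kb, a setting chosen after seeing the data. For genes called higher in FANS it was -0.318 and -0.312, -0.343 and -0.341, and -0.144 and -0.141. Among genes that were not called, Arc changed sign at equal length (2.18) and by gene-only percentiles (2.62), Sun1 by gene-only percentiles (2.47), and Gapdh by q-value (-3.97) and in the range over fits without 1 library (-0.776 to 2.77, the lowest without FANS replicate 2). Ranked by q-value these 3 genes were called higher in FANS (Arc -4.40, adjusted p = 0.00561; Sun1 -6.54, adjusted p = 0.000612; Gapdh adjusted p = 0.0044, limma). The causes were not tested.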
